A study of Rattus norvegicus with 4 samples.

Results

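The genes described here encode 10 amino acid transporters, proteins of the solute carrier families that move amino acids across the plasma membrane or the lysosomal membrane. They were chosen by name, as the rows of the deposited table with the symbols Slc7a1, Slc7a5, Slc3a2, Slc7a6, Slc7a7, Slc1a4, Slc1a5, Slc38a1, Slc38a2 and Slc36a1. All 10 were found among the 16290 genes of the table, and all 10 were among the 12838 genes with values high enough to test. RNA was sequenced from rat neonatal cardiomyocytes, heart muscle cells of postnatal day 3, that were given an adenovirus vector, a viral carrier, encoding Pdk3 or mock. The Pdk3 group had 2 libraries (Pdk3 1 and Pdk3 2) and the Mock group 2 (Mock 1 and Mock 2), both groups carrying vector. Pdk3 encodes a kinase that inhibits the pyruvate dehydrogenase complex, and the title of the series concerns glycolysis, the pyruvate dehydrogenase axis and the proliferation of cardiomyocytes. The cells grew in serum-containing medium with glutamine and pyruvate added, per the labels. Whether the libraries of a group stem from different cultures or animals is not stated in the labels, and the p-values therefore cover only library-to-library spread, which may be technical.

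Amino acid transporters work in systems with overlapping cargo. SLC7A1 carries the cationic amino acids arginine and lysine into the cell on its own. SLC7A5, SLC7A6 and SLC7A7 are light chains that reach the membrane bound to the heavy chain SLC3A2 and work as exchangers. With SLC7A5 the pair takes up leucine and other large neutral amino acids, and with SLC7A6 or SLC7A7 it trades cationic for neutral ones. SLC1A4 and SLC1A5 exchange small neutral amino acids such as alanine and serine, and SLC1A5 also carries glutamine. SLC38A1 and SLC38A2 use the sodium gradient to load cells with glutamine and alanine, and SLC36A1 moves small neutral amino acids with protons, also out of lysosomes. Leucine and arginine taken up in these ways are signals to the kinase complex mTORC1, and in mammalian cells several of these genes are known targets of ATF4, the transcription factor of the integrated stress response.

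Promoters are shown for 5 of the genes, because 4 of these passed the test and because the 5 hold the matches to the motifs searched. The windows run from 250 bases before to 50 bases after the RefSeq gene start (build GRCr8) and are printed 5′ to 3′ in the direction of the gene. Capitals mark a match, on either strand, to TGATGNAA, the core of the response element that ATF4 binds with C/EBP partners, or to CACGTG, the E-box bound by MYC, MLX and TFEB family proteins.
Slc7a1, chr12:11664238-11664537, plus strand: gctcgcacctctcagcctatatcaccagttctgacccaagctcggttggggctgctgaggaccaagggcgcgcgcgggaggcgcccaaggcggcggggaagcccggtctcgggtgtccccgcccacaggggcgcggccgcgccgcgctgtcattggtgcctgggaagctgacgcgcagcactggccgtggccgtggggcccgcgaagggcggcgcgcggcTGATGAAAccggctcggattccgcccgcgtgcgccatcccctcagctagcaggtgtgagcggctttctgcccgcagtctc
Slc7a5, chr19:66872363-66872662, minus strand: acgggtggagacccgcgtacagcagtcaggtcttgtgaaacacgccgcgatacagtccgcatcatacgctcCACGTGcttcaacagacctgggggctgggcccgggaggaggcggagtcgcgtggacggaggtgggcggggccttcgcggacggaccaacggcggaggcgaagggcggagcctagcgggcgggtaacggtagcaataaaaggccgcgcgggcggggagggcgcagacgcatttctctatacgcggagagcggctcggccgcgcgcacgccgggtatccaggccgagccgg
Slc1a4, chr14:98761513-98761812, minus strand: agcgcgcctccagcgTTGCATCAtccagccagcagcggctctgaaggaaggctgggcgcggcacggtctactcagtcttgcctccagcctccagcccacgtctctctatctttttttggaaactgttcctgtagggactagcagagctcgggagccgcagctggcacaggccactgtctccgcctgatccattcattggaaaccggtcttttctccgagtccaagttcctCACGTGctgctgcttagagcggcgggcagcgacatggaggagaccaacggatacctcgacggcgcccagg
Slc38a1, chr7:129681352-129681651, minus strand: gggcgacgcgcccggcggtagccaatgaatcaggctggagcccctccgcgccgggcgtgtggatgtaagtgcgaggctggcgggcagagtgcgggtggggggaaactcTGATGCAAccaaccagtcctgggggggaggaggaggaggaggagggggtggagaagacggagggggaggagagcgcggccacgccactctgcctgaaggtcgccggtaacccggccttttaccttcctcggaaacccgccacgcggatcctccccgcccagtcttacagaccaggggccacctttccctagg
Slc36a1, chr10:39824785-39825084, plus strand: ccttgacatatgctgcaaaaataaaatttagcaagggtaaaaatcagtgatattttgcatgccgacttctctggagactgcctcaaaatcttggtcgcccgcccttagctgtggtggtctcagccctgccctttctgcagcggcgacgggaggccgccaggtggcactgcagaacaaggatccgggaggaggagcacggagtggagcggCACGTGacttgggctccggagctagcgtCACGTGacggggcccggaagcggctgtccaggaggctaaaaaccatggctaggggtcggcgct

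RefSeq windows were matched for 9 of the 10 genes, Slc1a5 being the one without. A match to TGATGNAA was found for 3 of the 9 (Slc7a1, Slc1a4 and Slc38a1), against 3.98% of the 33365 distinct promoter windows of the table. In Slc7a1 it began 30 bases before the start, in Slc38a1 142 bases before it, and in Slc1a4, where it lies on the opposite strand, 235 bases before it. An E-box was found for 3 of the 9 (Slc7a5, Slc1a4 and Slc36a1), against 6.43% of the windows. Slc36a1 held 2 E-boxes, 41 and 13 bases before the start, while that of Slc1a4 lay 20 and that of Slc7a5 179 bases before it. Neither motif matched in the windows of Slc3a2, which has 2, Slc7a6, Slc7a7 or Slc38a2. The 2 motifs share no bases in these windows. A match describes the letters of the window and was not tested as a site.

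With Pdk3, 4 of the 10 genes rose and 1 fell. Slc7a1 was 1.45-fold, Slc1a4 1.30-fold, Slc7a5 1.29-fold and its heavy chain partner Slc3a2 1.18-fold higher, and Slc36a1 was at 0.784 of its Mock level. The other 5 did not pass the test, among them the glutamine carriers Slc38a1 and Slc38a2 (Pdk3 over Mock 1.02 and 0.989). Over all genes tested, 22.9% were called in either direction, 11.7% higher and 11.3% lower (limma, adjusted p under 0.05). The median log2 fold change of the 10 genes was 0.06, against -0.01 over all genes tested. Values are read counts that the authors normalised between libraries and rounded. Folds are ratios of the group means of these counts, Pdk3 over Mock. Log2 fold changes and their standard errors are from limma on the log2(value + 1) scale, Pdk3 minus Mock, which understates changes of low genes.

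**Figure D1:**
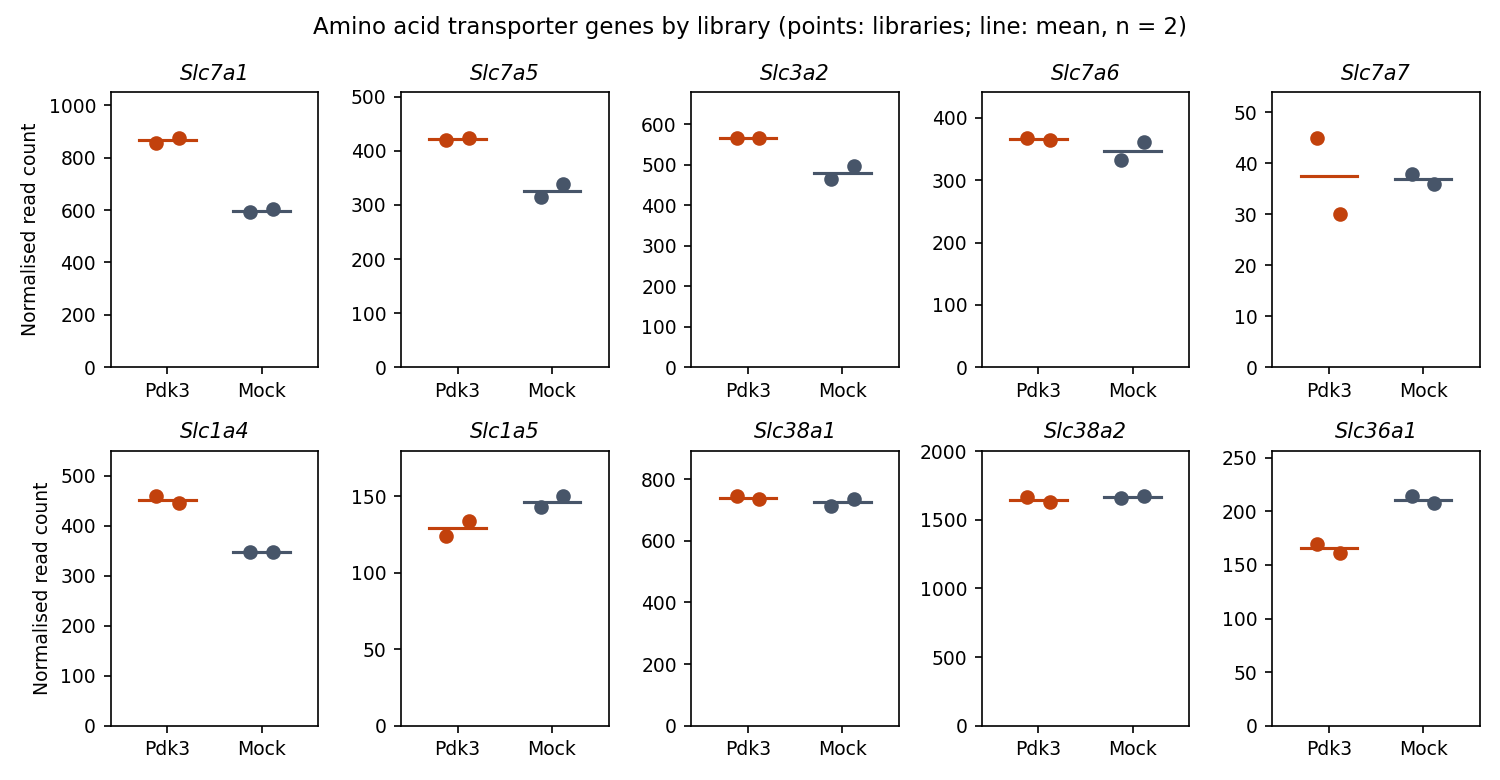
Normalised read counts (vertical axes, from 0) of each of the 10 transporter genes in the Pdk3 and Mock libraries. Points are libraries and lines are means of n = 2. The Pdk3 libraries lie above the Mock libraries for Slc7a1 (857 and 876 against 593 and 604), and the groups overlap for Slc7a7, Slc38a1 and Slc38a2.

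The cationic amino acid transporter Slc7a1 (ENSRNOG00000000924, chromosome 12, 8032809 to 8108972, plus strand, rn6) had normalised read counts of 857 in Pdk3 1 and 876 in Pdk3 2, against 593 in Mock 1 and 604 in Mock 2. Both Pdk3 libraries lay above both Mock libraries, and the gap between the groups was many times the spread within either. Across all genes tested the libraries of a group differed by less than counting noise, so this small spread need not reflect biological variation. The means were 866.5 ± 13.4 with Pdk3 and 598.5 ± 7.8 with Mock (SD, n = 2 each), a log2 fold change of 0.53 ± 0.03 (SE, limma adjusted p = 3.65e-05). Of all genes tested, 92.1% had a smaller change in size. It was the member with the largest change. The part of the TGATGNAA match of its promoter window in this change was not tested.

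Slc7a5 (ENSRNOG00000018824, chromosome 19, 54693959 to 54722563, minus strand), the leucine-carrying light chain, had counts of 420 and 424 with Pdk3, against 315 and 338 with Mock. Slc3a2 (ENSRNOG00000018487, chromosome 1, 224906554 to 224921092, minus strand), its heavy chain, had 566 and 566 with Pdk3, against 464 and 497 with Mock. For both subunits the Pdk3 libraries were nearly equal and stood above the Mock libraries, which differed more. The log2 fold change was 0.37 ± 0.05 for Slc7a5 (adjusted p = 0.00171) and 0.24 ± 0.04 for Slc3a2 (adjusted p = 0.00635, limma). Without the filter on low values the adjusted p was 0.0524 for Slc7a5 and 0.0852 for Slc3a2, and without an intensity trend in limma it was 0.0506 for Slc7a5 and 0.0884 for Slc3a2.

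The other light chains that use SLC3A2 did not pass. Slc7a6 (ENSRNOG00000019943, chromosome 19, 38162515 to 38179149, plus strand) had counts of 368 and 365 with Pdk3, against 333 and 361 with Mock. Its groups did not overlap, but Mock 2 was within 4 counts of Pdk3 2. The log2 fold change was 0.08 ± 0.05, with a 95% interval of -0.04 to 0.20 (limma adjusted p = 0.301). Slc7a7 (ENSRNOG00000010296, chromosome 15, 33013504 to 33051129, minus strand), known in humans as the gene of lysinuric protein intolerance and expressed in macrophages, was the lowest of the 10. It had 45 and 30 with Pdk3, against 38 and 36 with Mock, so that the Pdk3 libraries lay on both sides of the Mock libraries. At this depth the interval of its log2 fold change ran from -0.51 to 0.50 (adjusted p = 0.982), which does not resolve a change of the size seen in Slc7a5.

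Slc1a4 (ENSRNOG00000005248, chromosome 14, 104581190 to 104612597, minus strand), the serine and alanine exchanger, had counts of 459 and 445 with Pdk3, against 347 and 347 with Mock. The groups were well apart, and the log2 fold change was 0.38 ± 0.04 (limma adjusted p = 0.000641). Its paralog Slc1a5 (ENSRNOG00000015948, chromosome 1, 78710539 to 78724794, plus strand), which adds glutamine to the cargo, had 124 and 134 with Pdk3, against 143 and 150 with Mock. Both Pdk3 libraries of Slc1a5 were below both Mock libraries, yet the difference did not pass, with a log2 fold change of -0.18 ± 0.08 and an interval of -0.37 to 0.01 (adjusted p = 0.153).

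Slc38a2 (ENSRNOG00000006305, chromosome 7, 138088649 to 138100841, minus strand), which responds to amino acid supply in many cell types, had counts of 1663 and 1632 with Pdk3, against 1659 and 1671 with Mock. The libraries of the groups interleaved, and the interval of the log2 fold change was narrow, -0.06 to 0.03 (limma adjusted p = 0.627). Slc38a1 (ENSRNOG00000005291, chromosome 7, 137975549 to 138039984, minus strand) had 744 and 736 with Pdk3, against 713 and 737 with Mock, and an interval of -0.04 to 0.10 (adjusted p = 0.522). The 2 genes are neighbours, 48.7 kb apart on the same strand with 0 genes of the table between them.

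Slc36a1 (ENSRNOG00000012356, chromosome 10, 40543288 to 40574444, plus strand), the proton-coupled transporter of lysosomes and the cell surface, was the member that fell. It had counts of 170 and 161 with Pdk3, against 214 and 208 with Mock, with both Pdk3 libraries below both Mock libraries. The log2 fold change was -0.35 ± 0.07 (limma adjusted p = 0.00876). Without the filter on low values its adjusted p was 0.0547. Of the 9 genes with a window it is the one whose promoter window holds a pair of E-boxes. Their part in its change was not tested.

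**Figure D2:**
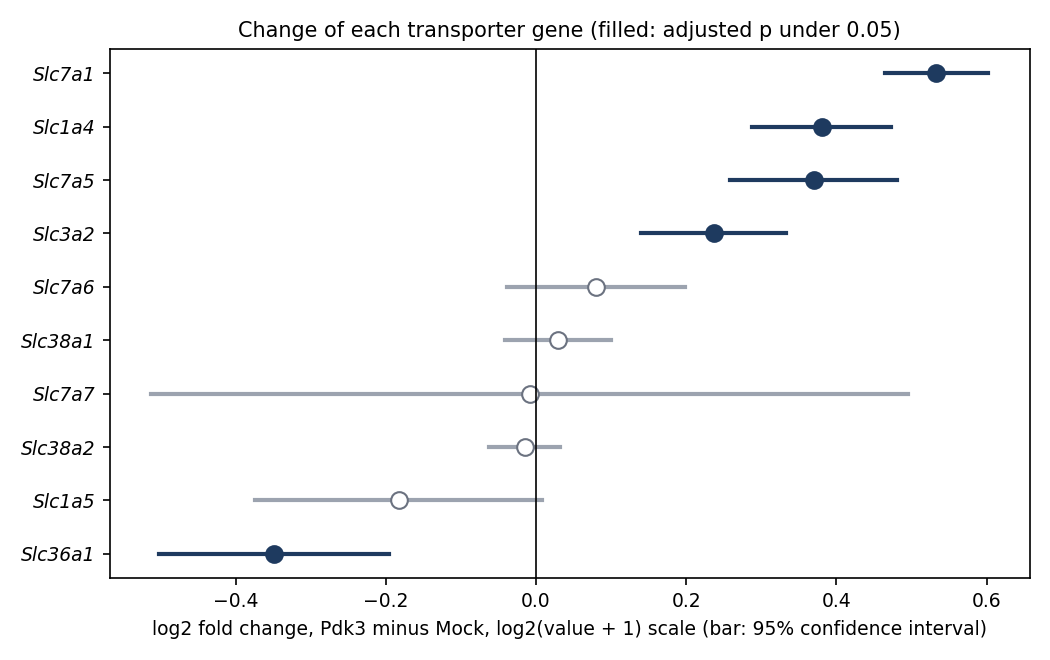
Log2 fold change, Pdk3 minus Mock (horizontal axis, log2(value + 1) scale), of each transporter gene with its 95% confidence interval from limma. Filled points passed an adjusted p of 0.05. The order runs from Slc7a1 at 0.53 to Slc36a1 at -0.35, with Slc7a7 the least precise.

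The libraries of the groups did not overlap for 7 of the 10 genes, against 61.0% of all genes tested. When p was floored at counting noise, the same 4 genes rose and Slc36a1 fell, against 15.8% of all genes tested called under that floor, with adjusted p of 0.00684 for Slc3a2 and 0.0107 for Slc36a1. For scaling to ribosomal protein genes, both Pdk3 libraries were divided by the same factor, which set the median change of these genes to none. The Mock libraries were left as they were. Under this scaling 3 of the 10 were lower: Slc36a1, Slc1a5 (limma adjusted p = 0.0475) and Slc38a2 (-0.09, adjusted p = 0.0117). Slc7a1, Slc7a5, Slc3a2 and Slc1a4 stayed higher under that scaling, and Slc38a1 turned sign to -0.05. The scaling lowers nearly all genes alike, and over all genes tested 918 were then higher and 3055 lower, against 1496 and 1449 with the scaling of the authors. With any single library left out (Pdk3 1, Pdk3 2, Mock 1 or Mock 2), limma with 1 residual degree of freedom called 0 of the 10 genes and 0 genes overall. Of all genes tested, 2918 to 3330 then had an unadjusted p under 0.05, and the log2 fold change of Slc7a1 lay between 0.52 and 0.55.

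Within a library the ratio of a pair of genes does not depend on the scaling between libraries, and 5 pairs were compared in this way. The ratio of counts of Slc1a4 to Slc1a5 was 3.70 and 3.32 with Pdk3, against 2.43 and 2.31 with Mock. The log2 ratio was 0.56 higher with Pdk3. For the subunits Slc7a5 and Slc3a2 the ratio was 0.742 and 0.749 with Pdk3, against 0.679 and 0.680 with Mock, a log2 difference of 0.13. Slc38a1 to Slc38a2 gave 0.447 and 0.451 with Pdk3, against 0.430 and 0.441 with Mock, a log2 difference of 0.05. For these 3 pairs the groups did not overlap, and the exact permutation test gave p = 0.333, the smallest that 2 against 2 libraries allow (two-sided). With so few libraries the test cannot decide, and the differences are only described. Slc7a6 to Slc7a7 gave 8.18 and 12.2 with Pdk3, against 8.76 and 10.03 with Mock, and Slc7a5 to Slc7a7 gave 9.33 and 14.1 with Pdk3, against 8.29 and 9.39 with Mock. The log2 difference of Slc7a5 to Slc7a7 was 0.38, and 0.087 to 0.67 with 1 library left out. In both of these pairs the groups overlapped (exact permutation p = 1.0 for the first and 0.667 for the second). Counts are not corrected for transcript length, so these ratios compare groups and do not order the genes by level.

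**Figure D3:**
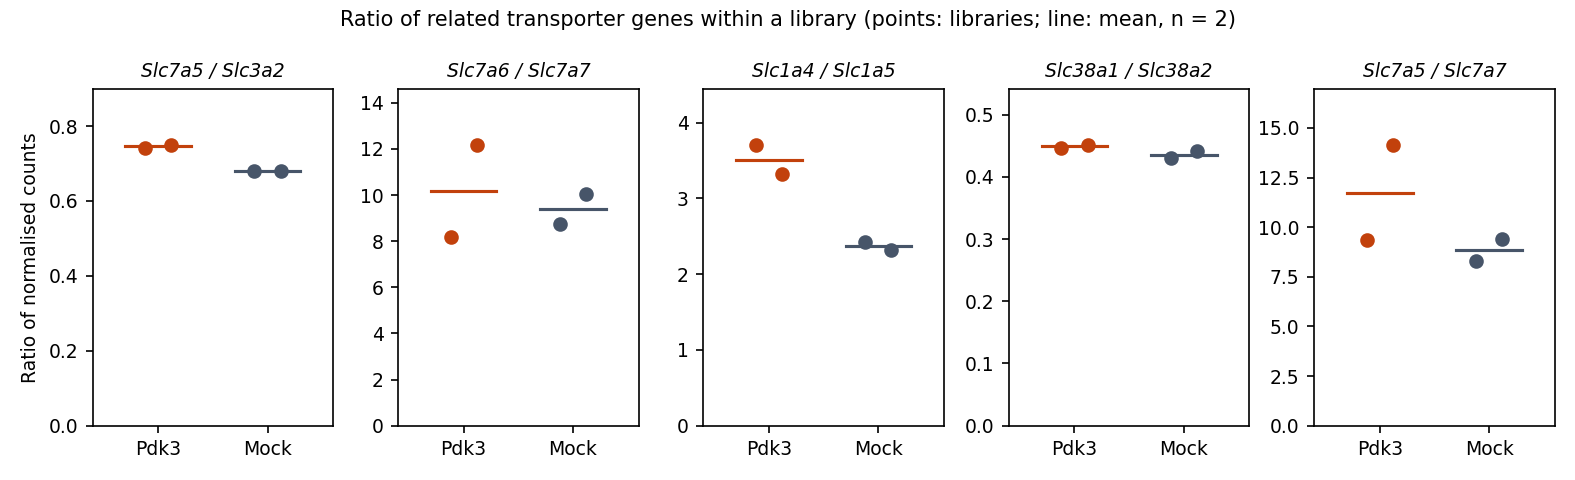
Ratio of normalised read counts of related transporter genes (vertical axes, from 0) within each Pdk3 and Mock library. Points are libraries and lines are means of n = 2. The ratio of Slc1a4 to Slc1a5 lies at 3.70 and 3.32 with Pdk3 and at 2.43 and 2.31 with Mock.

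Of 46 further amino acid transporter genes listed, 33 had a row in the table and 23 were tested, of which 1 rose and 4 fell. Among all genes tested 11.7% rose and 11.3% fell. The median log2 fold change of this list was -0.08. With ribosomal protein scaling 1 was higher and 8 were lower (918 and 3055 over all genes tested). Without the filter on low values 1 was higher and 0 lower (558 and 418 over all genes). Slc38a4, a relative of Slc38a2 known from liver and placenta, had 164 and 183 with Pdk3, against 285 and 260 with Mock (log2 fold change -0.65 ± 0.08, limma adjusted p = 0.00113). Slc1a1, a glutamate transporter, had 115 and 106 with Pdk3, against 187 and 169 with Mock (-0.68 ± 0.09, adjusted p = 0.00173). Both are larger in size than the change of any of the 10 genes. The lysosomal Slc38a7 fell by 0.27 (adjusted p = 0.0370), and the glutamate transporter Slc1a3 by 0.12 (adjusted p = 0.0298, and 0.129 floored at counting noise). Slc6a17, a neutral amino acid transporter known from synaptic vesicles, was the one that rose, with 1122 and 1149 with Pdk3, against 935 and 926 with Mock (log2 fold change 0.29). The cystine carrier Slc7a11, a well known ATF4 target, had 135 and 140 with Pdk3, against 147 and 143 with Mock, and did not pass (adjusted p = 0.511).

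Among the genes of the integrated stress response, 6 of 21 tested rose and 3 fell (11.7% and 11.3% over all genes tested), with a median log2 fold change of 0.06. With ribosomal protein scaling 4 were higher and 5 lower (918 and 3055 over all genes tested). Without the filter on low values 1 was higher and 1 lower (558 and 418 over all genes). Atf4 itself had 592 and 595 with Pdk3, against 511 and 505 with Mock (log2 fold change 0.22 ± 0.03, limma adjusted p = 0.00276). Chac1, which degrades glutathione, had 98 and 83 with Pdk3, against 51 and 47 with Mock (0.87 ± 0.13, adjusted p = 0.00373). Cebpg, a binding partner of ATF4, and Asns, asparagine synthetase, rose by 0.26 and 0.28. Ddit3 fell by 0.31 (adjusted p = 0.0187) and Herpud1, a gene of protein degradation at the endoplasmic reticulum, by 0.22. Floored at counting noise, 4 rose and 2 fell (1076 and 956 over all genes tested), as the calls of Vldlr, Eif2s1 and Eif2ak1 ended. Other known members of this response did not pass, with 253 and 236 counts with Pdk3 against 238 and 257 with Mock for Atf3 (adjusted p = 0.874), and 118 and 93 with Pdk3 against 96 and 71 with Mock for Trib3 (adjusted p = 0.194).

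The genes of amino acid sensing and mTORC1 showed 2 higher and 7 lower of 31 tested (11.7% and 11.3% over all genes tested), with a median log2 fold change of -0.07. This list holds the kinase complex and its regulators besides the sensors. Scaling to ribosomal protein genes gave 1 higher and 11 lower (918 and 3055 over all genes tested). Leaving out the filter on low values gave 1 and 1 (558 and 418 over all genes). Mtor, the kinase, had 1677 and 1681 with Pdk3, against 1522 and 1531 with Mock (log2 fold change 0.14 ± 0.02, limma adjusted p = 0.00242). The lower genes included Sesn3 (-0.26), of the sestrins that restrain mTORC1, Castor2 (-0.39), of the arginine sensor family, and Nprl2 and Wdr59 (-0.30 and -0.23), subunits of the GATOR complexes. Sesn2, an ATF4 target, had an adjusted p of 0.320. The inhibitors Ddit4 and Tsc2 fell by 0.23 and 0.11, and Depdc5, a GATOR subunit, rose by 0.16. Floored at counting noise, 1 gene of this list was higher and 4 lower (1076 and 956 over all genes tested). The calls of Ddit4, Tsc2, Nprl3 and Depdc5 then ended.

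Of 27 tested enzymes that use the carried amino acids, 5 rose and 3 fell (11.7% and 11.3% over all genes tested), with a median log2 fold change of -0.01. Under ribosomal protein scaling 2 were higher and 6 lower (918 and 3055 over all genes tested). Without the filter on low values 1 was higher and 2 lower (558 and 418 over all genes). Phgdh, which starts serine synthesis, had 217 and 242 with Pdk3, against 156 and 149 with Mock (log2 fold change 0.58 ± 0.08, limma adjusted p = 0.00172), and Psph, which completes it, rose by 0.40. The aspartate aminotransferase Got1 rose by 0.15. Glul, which makes glutamine from glutamate, had 739 and 739 with Pdk3, against 856 and 853 with Mock (-0.21 ± 0.03, adjusted p = 0.00152). Bckdha, of branched-chain amino acid breakdown, fell by 0.20. The calls of Bcat1 and Odc1 (higher) and Asl (lower) ended under the floor at counting noise, with adjusted p of 0.124, 0.102 and 0.130. Of 9 tested mitochondrial amino acid carriers, 2 rose and 0 fell by limma, against 22.9% of all genes tested called in either direction. Under ribosomal protein scaling 1 of these carriers was higher and 2 were lower (918 and 3055 over all genes tested). Sfxn1, the serine carrier of mitochondria, had 393 and 384 with Pdk3, against 329 and 329 with Mock (0.24 ± 0.04, adjusted p = 0.00617), and Slc25a13, the aspartate and glutamate carrier, rose by 0.15 (adjusted p = 0.0246, and 0.128 floored at counting noise).

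**Figure D4:**
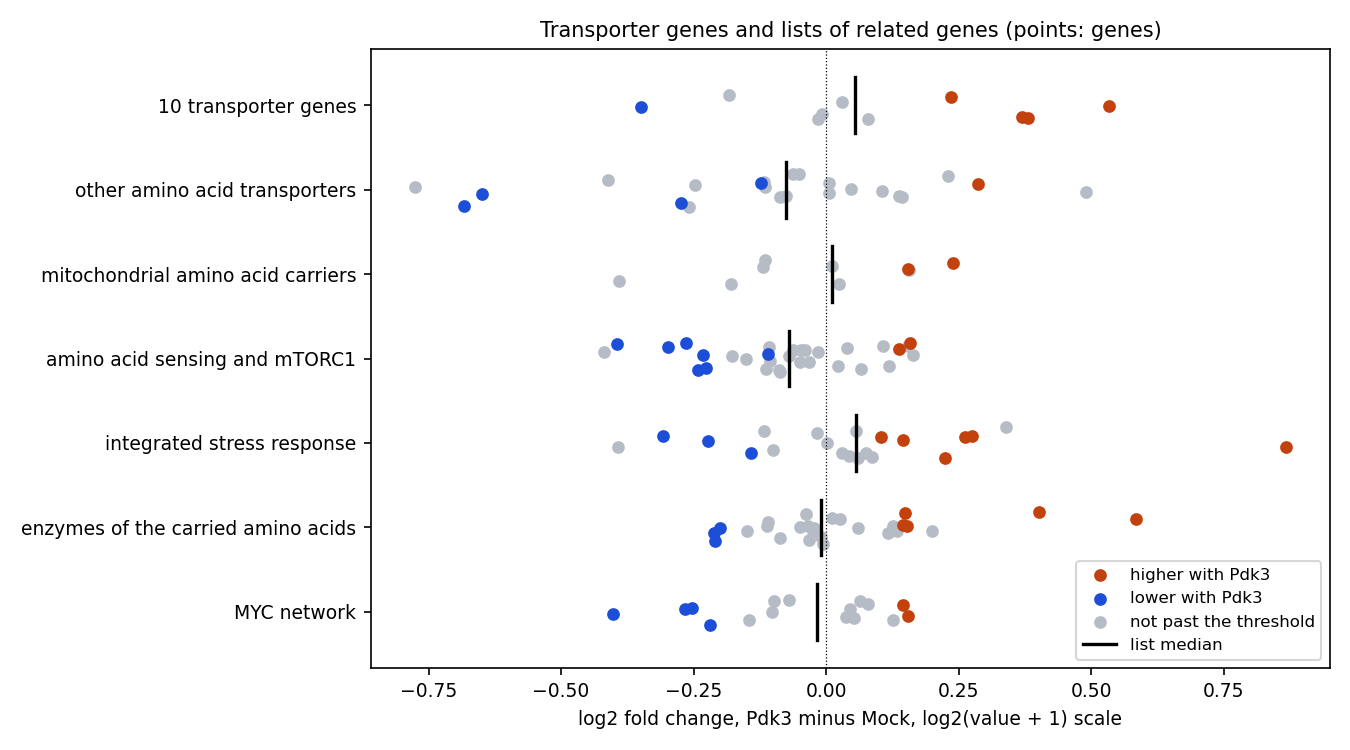
Log2 fold change, Pdk3 minus Mock (horizontal axis, log2(value + 1) scale), of the 10 transporter genes and of 6 lists of related genes. Points are genes, coloured by whether they were higher, lower or not past an adjusted p of 0.05, and black lines are list medians. Of the 10 transporter genes 4 are higher and 1 is lower.

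As a check of the labels, Pdk3 had 1218 and 1177 with Pdk3 vector, against 396 and 411 with Mock, with reads of vector and cell not separated. Totals of normalised counts per library were 4448199 to 4476649. Cardiomyocyte markers were all present, 8 of 8, and summed to 20546 to 20879 with Pdk3, against 20025 to 20236 with Mock. By limma 4 of these 8 rose and 1 fell, against 11.7% and 11.3% of all genes tested. Macrophage markers fell for 8 of 15 tested (11.3% of all genes tested fell by limma) and summed to 1852 to 1931 with Pdk3, against 2250 to 2426 with Mock. In bulk RNA, fewer cells of a type and less RNA per cell cannot be told apart. Endothelial markers summed to 972 to 999 with Pdk3, against 1036 to 1108 with Mock, and 2 of 7 tested fell and 0 rose. Smooth muscle markers summed to 3729 to 3734 with Pdk3, against 3255 to 3304 with Mock, and 3 of 6 tested rose and 0 fell. Fibroblast markers summed to 5265 to 5416 with Pdk3, against 5416 to 5484 with Mock, and 1 of 7 tested fell and 0 rose. Mesothelial markers summed to 146 to 172 with Pdk3, against 175 to 179 with Mock. Of 4 mesothelial markers tested 1 fell and 0 rose, and their median log2 fold change was 0.13, above 0 despite the lower sum. Erythroid markers, of which 3 of 8 had a row, summed to 34 to 37 with Pdk3, against 70 to 78 with Mock. Of these 3 markers 2 fell and 0 rose. No marker with a row was at 0 in any library. The part of these cell types in the changes of the transporter genes was not tested.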

How the data were processed

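mRNA of 4 libraries (2 Pdk3, 2 Mock) was sequenced after preparation with a stranded kit, per the labels' protocols. Per the submitters' processing notes, the tools included STAR 2.6.1d, Trimmomatic 0.39, DESeq2 1.26.0, FastQC and featureCounts 1.6.5 of Subread, with the build rn6. The handling of duplicate reads and of strand was not given in the sources used here. The deposited values are treated as a score: read counts that the authors normalised and rounded to whole numbers. From skipped and doubled whole numbers the scaling factors were estimated as 0.92465 and 0.96275 (Pdk3) and 1.02555 and 1.05665 (Mock), which gives 4139599 to 4706703 reads per library. Without molecular identifiers, reads need not be independent molecules.

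The 12838 genes that reached 10 in 2 or more libraries were tested on log2(value + 1) with limma 3.58.1 in R 4.3.3, with an intensity trend and group as the single term, two-sided, Benjamini-Hochberg adjusted over all genes tested, threshold 0.05 (2 residual degrees of freedom, prior 5.56). The procedure was tested on values simulated with counting noise, for genes with a mean of at least 50. It recovered 26 of 50 changes of 1.25-fold, 41 of 50 of 1.5-fold and 48 of 50 of 2-fold, with 1 false call. The real libraries spread less than these simulated ones, so the rates need not hold for them. Within each group the libraries differed by less than counting noise (chi-square over its degrees of freedom 0.606 for Pdk3 and 0.601 for Mock), and with 1 pair per group both were kept as separate libraries. Why they differ so little is not given in the sources used here. Because of this small spread p was also floored at counting noise, as the larger of the limma p and an exact binomial p of summed reads. Ratios of gene pairs were compared with exact permutation tests.

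The 10 genes, the gene lists, the motifs and the alternatives were chosen with earlier results of these data known. All 10 genes are named, and from each list up to 6 called genes in the more frequent direction and 3 in the other, by smallest p; Slc7a11, Atf3, Trib3, Sesn2, Nprl3 and Myc are named outside that rule, after their values were seen. The alternatives included TMM scaling, a replicate block, leaving out each library, scaling to ribosomal protein genes, other filters and pseudocounts, no intensity trend, and counting noise. Promoter windows are from RefSeq (GRCr8), matched by symbol.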

Additional observations from a re-analysis of the deposited data

How the results depend on the processing

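The rise of Slc7a1 and Slc1a4 passed under every setting tried with all 4 libraries: a replicate block, TMM or ribosomal protein scaling, no filter on low values, a minimum value of 50, pseudocounts of 0.5 and 8, no intensity trend, and counting noise as a floor or alone. Scaled to ribosomal protein genes, 918 genes were higher and 3055 lower, 3 of the 10 transporter genes were lower, and 9 genes of the related lists were higher and 40 lower (against 17 and 21). Without a filter on low values the counts were 558 higher and 418 lower over all genes, 2 and 0 among the 10, and 6 and 5 in the lists. Without an intensity trend they were 526 and 325 over all genes, 2 and 1 among the 10, and 3 and 3 in the lists. Floored at counting noise, 1076 of all genes were higher and 956 lower, with 4 and 1 among the 10, and 11 and 15 in the lists. The cause of these moves was not tested.

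With each library left out in turn, counts of calls were 0 to 0 over all genes, among the 10 genes and in the lists, higher and lower, with 1 residual degree of freedom in limma. Without one library Slc7a7 ranged from -0.29 to 0.28 and the log2 difference of Slc7a6 over Slc7a7 from -0.19 to 0.37. Slc7a7 turned to 0.025 with counting noise alone, and Slc38a1 to -0.048 with ribosomal protein scaling. With a minimum value of 50 Slc7a7 was not tested. Over the 10 genes and all settings, 108 values kept their direction and their side of the threshold, 25 no longer passed, 2 newly passed and 4 turned sign.

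Library numbers shared between the groups did not mark pairs in the data (correlation of deviations 0.04 over 12838 genes, a description across genes). With the replicate number as a block, 4 of the 10 genes were higher and 1 lower, as without it, and 1374 of all genes were higher and 1298 lower. Depth limits Slc7a7 most, at 30 to 45 counts.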

Other observations

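The MYC network list held genes of proteins that bind E-boxes and genes such as Ncl, Odc1 and Ldha, whose proteins do not. It had 2 higher and 4 lower of 16 tested (11.7% and 11.3% over all genes tested by limma). With ribosomal protein scaling it had 0 higher and 8 lower (918 and 3055 over all genes tested). The lower ones were the MAX partners Mxi1, Mxd1 and Mxd4, which are known as repressors that compete with MYC, and Mlxip, a glucose-responsive partner of MLX. Mxi1 had 362 and 328 normalised counts with Pdk3, against 447 and 464 with Mock (log2 fold change -0.40 ± 0.05, limma adjusted p = 0.00220). Mxd4 had 737 and 756 with Pdk3, against 874 and 863 with Mock (-0.22 ± 0.03, adjusted p = 0.00171). Mlxip had 421 and 437 with Pdk3, against 524 and 499 with Mock (-0.25 ± 0.04, adjusted p = 0.00488). Myc itself had 258 and 246 with Pdk3, against 270 and 288 with Mock, and did not pass (adjusted p = 0.110). Ncl, a nucleolar protein gene and known MYC target, rose by 0.15, as did Odc1, which is also counted among the enzymes above. Floored at counting noise, 1 gene of this list was higher and 4 lower (1076 and 956 over all genes tested). The call of Odc1 then ended (adjusted p = 0.102). Without the filter on low values 1 was higher and 1 lower (558 and 418 over all genes). Without an intensity trend in limma 0 were higher and 0 lower (526 and 325 over all genes). The list median was -0.02, against -0.01 over all genes tested.

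Among 10117 genes with a mean of at least 50, the 3 whose centred log2 values over the 4 libraries lay nearest to those of Slc7a1 were Ryr3, a calcium release channel (845 and 876 with Pdk3, against 583 and 600 with Mock, distance 0.0191), the intermediate filament gene Nes (distance 0.0202) and Msmo1 of sterol synthesis (distance 0.0246). Nearest to Slc36a1 were Slc17a7, a vesicular glutamate transporter (87 and 82 with Pdk3, against 109 and 105 with Mock, distance 0.0153), Tlr5 (0.0164) and Ift46 (0.0238). With 4 libraries in 2 groups this likeness mostly restates the size of the change.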
